A study of Mus musculus with 23 samples.

Results

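The microRNAs (miRNAs) encoded inside the Hox gene clusters were followed across brain regions and genotypes of the mouse. The set was chosen by name and comprised miR-10a-5p, miR-10a-3p, miR-10b-5p, miR-10b-3p, miR-196a-5p and miR-196b-5p, which are 6 of the 1915 mature miRNA names in the count tables. A miRNA hairpin has a 5p arm and a 3p arm, and usually the more abundant one acts in the cell. In the miR-10 hairpins that was the 5p arm in these libraries, and miR-10a-5p and miR-10b-5p were the members with enough reads to test. Both were several times higher in the cerebellum than in the forebrain, in Cdr1as knockout and in wild type mice, and neither passed the test between genotypes.

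Hox genes lie in 4 clusters and give the segments of the embryo their position along the head-to-tail axis. In the nervous system they are used in the hindbrain and spinal cord and are largely silent in the forebrain. The miR-10 and miR-196 genes sit within those clusters, and both families are known to target Hox messenger RNAs.

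The libraries came from dissected brain regions of C57BL/6 mice and were made from total RNA with a small RNA kit. One genotype was a knockout of Cdr1as, the locus of a circular RNA of neurons that binds miR-7 and miR-671, and the other was wild type. The groups were knockout and wild type cerebellum, cortex, hippocampus and olfactory bulb, each with 3 libraries except knockout hippocampus, which had 2 (numbered 2 and 3). That made 11 knockout and 12 wild type libraries. Age and sex are not stated in the labels used here. Whether each library is its own animal is not stated, and p-values therefore measure only the spread between these samples. The cerebellum is the only part of the hindbrain sampled, and it does not stand for the hindbrain as a whole. Cortex, hippocampus and olfactory bulb stand for the forebrain below. Hox messenger RNAs were not counted in these small RNA libraries, so whether Hox genes are used in the cerebellum was not tested.

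Total counts per library ran from 2328929 to 13070794. Cdr1as is not counted in miRNA tables, so its loss could not be checked in these samples. A list of 8 olfactory bulb markers (miR-200 and miR-183 families) summed to 218985 to 393952 CPM in knockout bulb and 271186 to 300785 CPM in wild type bulb. In the cortex the same sum was 141 to 445 CPM in knockout and 3676 to 6802 CPM in wild type libraries, so the wild type cortex libraries stand apart from the knockout ones in these markers. CPM here is the read count normalised to counts per 1000000 reads of a library, after scaling with TMM factors.

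The mature sequences are shown because the family is defined by its seed, bases 2 to 8 from the 5′ end, which pairs with target messenger RNAs. Seeds are in capitals, and sequences and positions are those of RefSeq on GRCm38.p6.
miR-10a-5p: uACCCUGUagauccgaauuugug
miR-10b-5p: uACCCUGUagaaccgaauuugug
miR-10a-3p: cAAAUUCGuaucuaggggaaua
miR-10b-3p: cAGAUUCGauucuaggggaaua
miR-196a-5p: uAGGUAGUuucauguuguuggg
miR-196b-5p: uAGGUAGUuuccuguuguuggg
The 5p arms of miR-10a and miR-10b share the seed ACCCUGU and differ over 23 bases only by U12A, with positions counted from the 5′ end and the base of miR-10a first. The 5p arms of miR-196a and miR-196b share the seed AGGUAGU and differ over 22 bases only by A12C, with the base of miR-196a first. Reads that stop short of that base, or carry an error there, cannot be assigned with certainty. How such reads were counted is not stated in the labels or tables. The 3p arms of the miR-10 pair differ by A3G, U9A and A10U, and the first of these lies in the seed.

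The hairpins are printed to show where the arms lie, with both mature arms in capitals.
Mir10a: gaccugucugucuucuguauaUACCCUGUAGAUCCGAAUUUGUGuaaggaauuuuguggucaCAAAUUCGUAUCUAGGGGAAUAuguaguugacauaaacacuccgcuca
Mir10b: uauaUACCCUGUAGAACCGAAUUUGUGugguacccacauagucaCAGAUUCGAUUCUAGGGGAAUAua
Mir10a lies in the HoxB cluster on the plus strand of chromosome 11 (chr11:96317165-96317274), between Hoxb5 and Hoxb4 and within the span of the RefSeq gene Hoxb3. Mir10b lies in the HoxD cluster on the plus strand of chromosome 2 (chr2:74726070-74726137), in introns of Hoxd3 and Hoxd4 in the GENCODE M21 annotation. MiR-196a-5p has a pair of genes with the same mature sequence, Mir196a-1 between Hoxb13 and Hoxb9 on chromosome 11 and Mir196a-2 between Hoxc10 and Hoxc9 on chromosome 15. Mir196b lies between Hoxa9 and Hoxa10 on the minus strand of chromosome 6, in an exon of Hoxa9 in GENCODE M21. The members therefore represent all 4 Hox clusters. The count tables give no coordinates and were made on another build (mm9), so these positions describe the genes and not the reads.

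MiR-10b-5p was the most abundant member and the one with the larger regional difference. In the cerebellum it stood at 1243, 1259 and 1234 CPM in knockout libraries, against 1276, 1234 and 1785 CPM in wild type libraries. In knockout forebrain it was 194, 146 and 168 CPM in cortex, 259 and 117 CPM in hippocampus, and 252, 146 and 150.05 CPM in olfactory bulb. In wild type forebrain it was 187, 152 and 162 CPM in cortex, 74.3, 127 and 185 CPM in hippocampus, and 178, 163 and 424 CPM in olfactory bulb. The lowest cerebellum library was above the highest forebrain library, by 4.76-fold in knockout and by 2.91-fold in wild type. The group means were 1245 ± 12.9 CPM in knockout cerebellum and 1432 ± 307 CPM in wild type cerebellum (SD, n = 3 each). In the forebrain the means ran from 169 ± 24.1 CPM in cortex to 188 CPM in hippocampus in knockout (SD, n = 3, and n = 2 for hippocampus), and from 129 ± 55.5 CPM in hippocampus to 255 ± 146 CPM in olfactory bulb in wild type (SD, n = 3 each).

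Against the mean of the forebrain regions on the log2 scale, miR-10b-5p was 6.91-fold higher in knockout cerebellum, a log2 difference of 2.79 with a standard error (SE) of 0.27 and an adjusted p of 1.52e-08 (edgeR quasi-likelihood test with Benjamini-Hochberg adjustment over 669 miRNAs). In wild type cerebellum it was 8.13-fold higher, a log2 difference of 3.02 with an SE of 0.26 and an adjusted p of 1.85e-09 in the same test. Large regional differences were common among miRNAs. A miRNA was called when its adjusted p was under 0.05 and its difference at least 2-fold, and 33.0% of the miRNAs tested were called between these regions in knockout and 34.2% in wild type. Called as higher in the cerebellum were 16.0% in knockout and 16.4% in wild type. Higher calls made up 48.4% of the calls in knockout and 48.0% in wild type. These shares depend on the scaling, and were 62.5% in knockout and 62.4% in wild type with upper quartile scaling, and 30.7% in knockout and 26.4% in wild type with library size alone. The cerebellum libraries lay above every forebrain library for 19.1% of the miRNAs tested in knockout and 18.7% in wild type. By log2 difference miR-10b-5p ranked 15th in knockout and 8th in wild type among the 669 miRNAs, whose median difference was 0.0089 in knockout and 0.024 in wild type. Ranked by the p of the edgeR test, miR-10b-5p was 76th in knockout and 63rd in wild type.

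MiR-10a-5p showed the same regional direction at a lower level. In the cerebellum it stood at 261, 241 and 253 CPM in knockout libraries, against 258, 233 and 357 CPM in wild type libraries. In knockout forebrain it was 69.6, 54.3 and 46.9 CPM in cortex, 62.2 and 43.3 CPM in hippocampus, and 103, 66.1 and 58.6 CPM in olfactory bulb. In wild type forebrain it was 55.8, 54.0 and 49.6 CPM in cortex, 45.6, 55.1 and 58.1 CPM in hippocampus, and 76.5, 147 and 91.7 CPM in olfactory bulb. Cerebellum and forebrain libraries did not overlap in either genotype, and the gap was 2.33-fold in knockout and 1.59-fold in wild type. MiR-10a-5p was 4.10-fold higher in knockout cerebellum than in the forebrain mean, a log2 difference of 2.04 with an SE of 0.18 and an adjusted p of 5.23e-09 (edgeR quasi-likelihood test with Benjamini-Hochberg adjustment). In wild type cerebellum it was 4.24-fold higher, a log2 difference of 2.09 with an SE of 0.17 and an adjusted p of 1.60e-09 in the same test. It ranked 39th in knockout and 28th in wild type by log2 difference, and 63rd in knockout and 62nd in wild type by the p of that test.

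**Figure D1:**
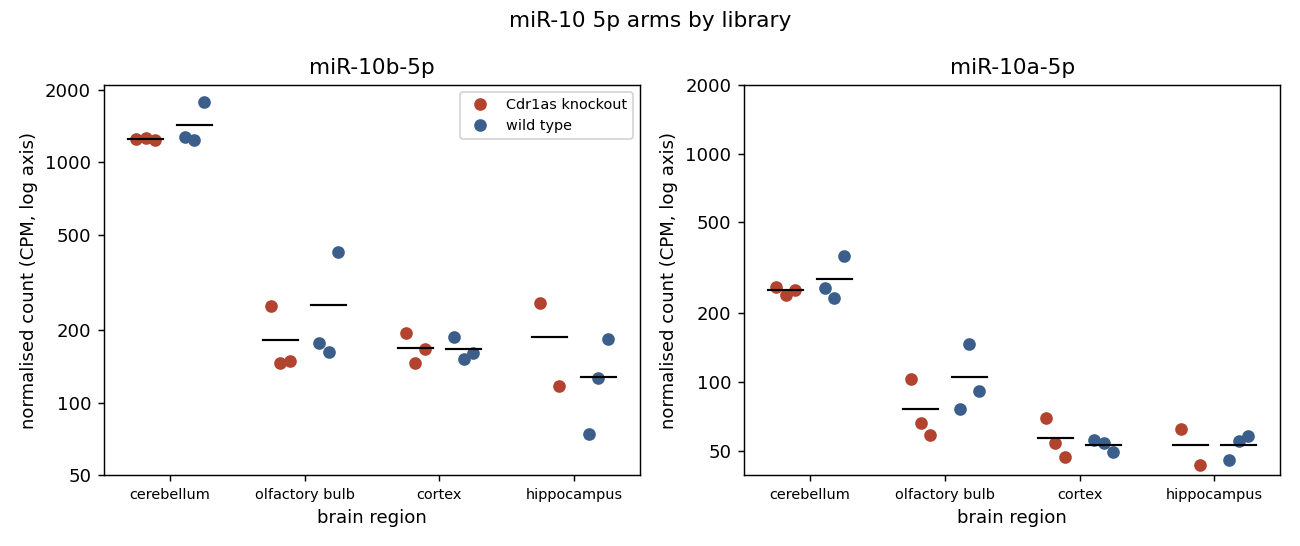
Normalised counts (CPM, log axis) of miR-10b-5p (left) and miR-10a-5p (right) in every library by brain region, Cdr1as knockout left of wild type, with a line at each group mean. Cerebellum libraries lie between 1234 and 1785 CPM for miR-10b-5p and between 233 and 357 CPM for miR-10a-5p, above every forebrain library, and the genotypes overlap in all 4 regions.

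Since both arms carry the same seed, their sum gives the amount of that seed contributed by the family. The sum averaged 1497 ± 8.77 CPM in knockout cerebellum and 1714 ± 371 CPM in wild type cerebellum (SD, n = 3 each). Over the geometric mean of the forebrain groups that was 6.40-fold in knockout and 7.15-fold in wild type. MiR-10b-5p made up 83.2% of the sum in knockout cerebellum and 83.5% in wild type cerebellum, and between 70.6% and 78.1% in the forebrain groups. By abundance miR-10b-5p was 66th in knockout cerebellum and 65th in wild type cerebellum, and between 141st and 171st in the forebrain groups. In bulk tissue, a higher share of expressing cells and more RNA per expressing cell cannot be told apart.

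The cerebellum was above each forebrain region taken alone, in both genotypes. In knockout the log2 difference of miR-10b-5p was 2.88 against cortex, 2.73 against hippocampus and 2.76 against olfactory bulb, and that of miR-10a-5p was 2.14, 2.25 and 1.72 in the same order. In wild type it was 3.10, 3.47 and 2.50 for miR-10b-5p and 2.41, 2.42 and 1.43 for miR-10a-5p. All 12 differences were called by edgeR with Benjamini-Hochberg adjustment and the 2-fold rule. In those comparisons 40.1%, 32.9% and 32.0% of all miRNAs tested were called in knockout, and 41.4%, 33.6% and 35.0% in wild type. The smallest of the 12, miR-10a-5p in wild type cerebellum against olfactory bulb, had an adjusted p of 3.36e-05 (edgeR with Benjamini-Hochberg adjustment).

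**Figure D2:**
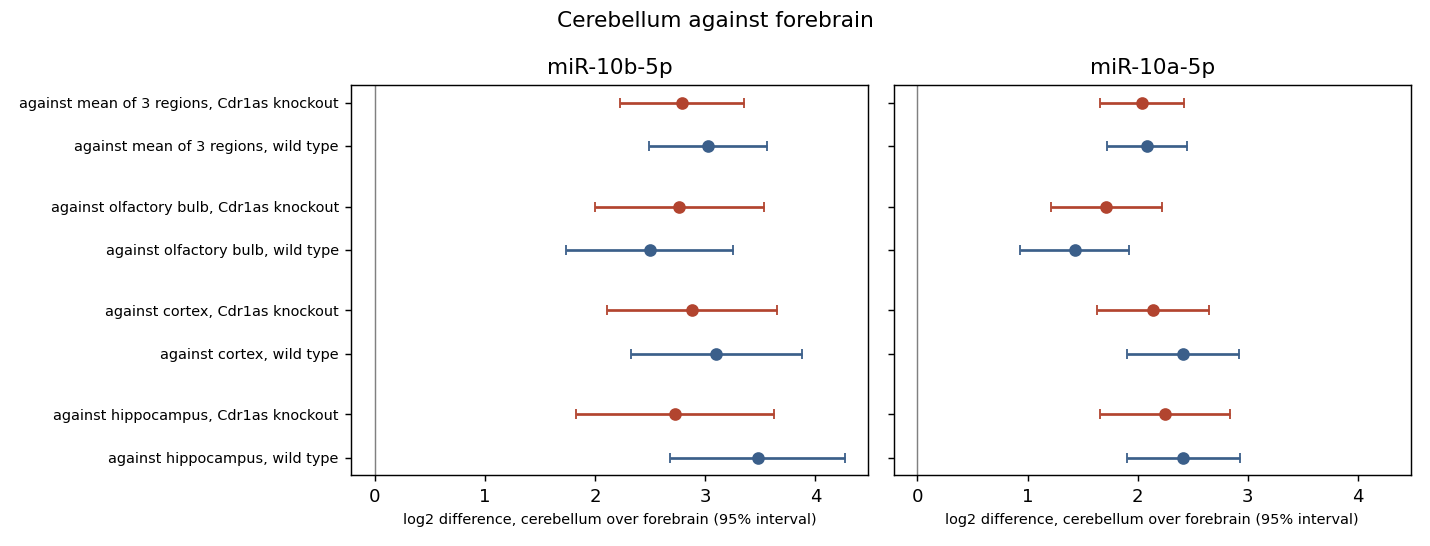
Log2 difference of cerebellum over forebrain with its 95% interval from the edgeR fit, for miR-10b-5p (left) and miR-10a-5p (right), against the mean of the 3 forebrain regions and against each region, knockout above wild type. Every interval lies to the right of 0, and the smallest difference is 1.43, for miR-10a-5p in wild type cerebellum against olfactory bulb.

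Among forebrain regions no pair of either arm was called with TMM scaling and all libraries, and some wild type pairs lay at the 2-fold limit. In knockout the neighbouring levels could not be separated, with log2 differences for miR-10b-5p of -0.15 for cortex over hippocampus, -0.11 for cortex over olfactory bulb and 0.04 for hippocampus over olfactory bulb. For miR-10a-5p in knockout they were 0.11, -0.42 and -0.54 in the same order, with adjusted p from 0.109 to 0.835 (edgeR with Benjamini-Hochberg adjustment). In wild type, miR-10a-5p gave a log2 difference of -0.98 for cortex over olfactory bulb (adjusted p = 0.00161) and of -0.99 for hippocampus over olfactory bulb (adjusted p = 0.00144, both edgeR with Benjamini-Hochberg adjustment), just short of 2-fold, and cortex and hippocampus differed by 0.0047. Without olfactory bulb wild type replicate 1 or 3, both of these passed 2-fold, with values between -1.19 and -1.07. The cortex difference also passed without cortex wild type replicate 1 (-1.02), and the hippocampus difference without hippocampus wild type replicate 2 or 3 (-1.03 and -1.07). Over all single left-out libraries the cortex difference ran from -1.18 to -0.67 and the hippocampus difference from -1.19 to -0.68. MiR-10b-5p in wild type gave -0.98 for hippocampus over olfactory bulb (adjusted p = 0.0226, edgeR with Benjamini-Hochberg adjustment), also short of 2-fold. It passed 2-fold without hippocampus wild type replicate 3 (-1.35) or olfactory bulb wild type replicate 1 or 2 (-1.20 and -1.24). Without olfactory bulb wild type replicate 3 the adjusted p was 0.313 and the difference -0.40 (edgeR with Benjamini-Hochberg adjustment). Other settings called some of these wild type pairs. For hippocampus over olfactory bulb, DESeq2 gave -1.02 for each arm, and its size factors in edgeR gave -1.02 for miR-10a-5p and -1.01 for miR-10b-5p. For cortex over olfactory bulb, upper quartile scaling gave -1.07 for miR-10a-5p. Scaled by library size alone, wild type cortex over olfactory bulb gave 0.31 for miR-10b-5p and -0.084 for miR-10a-5p, neither of them called, so the order within the forebrain is not fixed by these data. Of all miRNAs tested, 5.83%, 27.4% and 23.6% were called in these comparisons in knockout, and 10.3%, 28.7% and 25.9% in wild type.

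The ratio of the arms within a library needs no scaling. Reads of miR-10b-5p outnumbered those of miR-10a-5p by 4.77, 5.22 and 4.87-fold in knockout cerebellum, against 4.94, 5.29 and 5.003-fold in wild type cerebellum. In knockout forebrain the ratio was 2.79, 2.69 and 3.57 in cortex, 4.17 and 2.70 in hippocampus, and 2.43, 2.22 and 2.55 in olfactory bulb. In wild type forebrain it was 3.35, 2.82 and 3.26 in cortex, 1.63, 2.30 and 3.19 in hippocampus, and 2.32, 1.11 and 4.61 in olfactory bulb. The cerebellum libraries were thus close to each other and above every forebrain library, whereas the wild type olfactory bulb libraries spread over a wide range. The mean log2 ratio was higher in cerebellum than in forebrain libraries by 0.80 in knockout (two-sided exact permutation test, p = 0.00606, the smallest its 165 arrangements allow, Benjamini-Hochberg adjusted p = 0.0409 over 9 ratio tests). In wild type it was higher by 1.0 (two-sided exact permutation test over 220 arrangements, p = 0.0227, adjusted p = 0.0436). With any 1 cerebellum library left out, the exact permutation test no longer passed in either genotype (adjusted p 0.0511 in knockout and 0.131 to 0.164 in wild type). Fewer arrangements are then left and the smallest p they allow is higher, so a lost call does not show that the ratio rests on that library. The difference itself was 0.77 to 0.83 in knockout and 0.97 to 1.02 in wild type in these fits. Leaving out a forebrain library ended the wild type call as well (exact permutation test, adjusted p 0.0545 to 0.0655), except for hippocampus replicate 3 and olfactory bulb replicate 2. Knockout and wild type differed by 0.13 in mean log2 ratio (two-sided exact permutation test exchanging genotypes within regions, p = 0.508, adjusted p = 0.643).

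**Figure D3:**
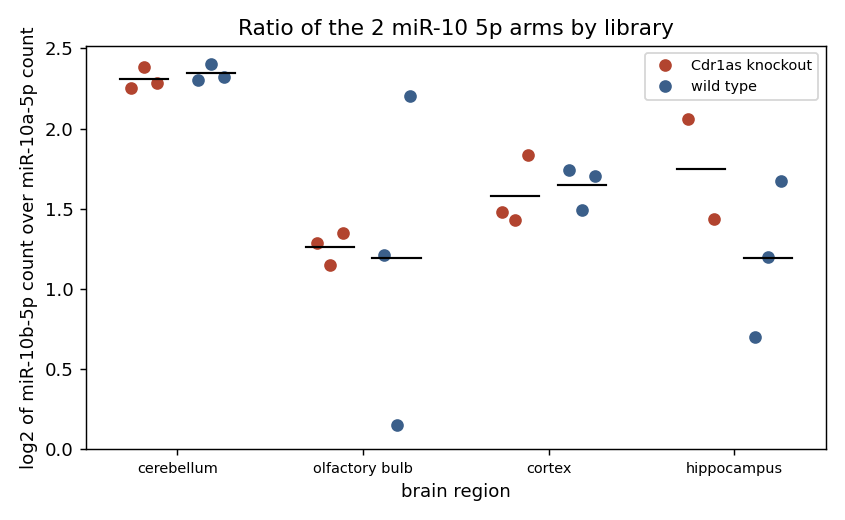
Log2 of the miR-10b-5p count over the miR-10a-5p count in every library by brain region, knockout left of wild type, with a line at each group mean. Cerebellum means are 2.31 in knockout and 2.34 in wild type, and the wild type olfactory bulb libraries range from 0.15 to 2.21.

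Libraries of 1 region varied more for miR-10b-5p in some groups than in others. In knockout the SD of its log2 CPM was 0.015 in cerebellum, 0.81 in hippocampus, 0.44 in olfactory bulb and 0.20 in cortex. In wild type it was 0.29 in cerebellum, 0.66 in hippocampus, 0.76 in olfactory bulb and 0.15 in cortex. The median SD over all miRNAs tested was between 0.17 and 0.29 in the 8 groups, so hippocampus and olfactory bulb libraries were more spread for miR-10b-5p than for a typical miRNA. So were the wild type cerebellum libraries, at 0.29 against a median of 0.19 in that group. The knockout hippocampus SD rests on 2 libraries. Raw counts ran from 284 to 14355 for miR-10b-5p and from 111 to 2869 for miR-10a-5p.

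The 2 genotypes were then compared to ask whether loss of Cdr1as altered these miRNAs. Averaged over the 4 regions, the log2 difference of knockout over wild type was -0.026 for miR-10b-5p (95% interval -0.40 to 0.35) and -0.13 for miR-10a-5p (-0.38 to 0.12). The adjusted p was 0.9998 for both (edgeR with Benjamini-Hochberg adjustment), and 1.49% of all miRNAs tested passed in this comparison. The library values of knockout and wild type overlapped in 4 of 4 regions for both arms, while they did not overlap for 7.03% of all miRNAs tested in cerebellum, 7.62% in cortex, 6.43% in olfactory bulb and 16.9% in hippocampus. A p above the threshold does not show that the genotypes were alike, and the intervals give the differences that remain possible with this spread.

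Within regions the intervals were wider. In the cerebellum the log2 difference was -0.20 for miR-10b-5p (95% interval -0.92 to 0.52) and -0.17 for miR-10a-5p (-0.65 to 0.31). In the cortex it was 0.020 for miR-10b-5p (-0.71 to 0.75) and 0.10 for miR-10a-5p (-0.40 to 0.60). The hippocampus and olfactory bulb gave the larger values for miR-10b-5p, and each changed sign without 1 library. MiR-10b-5p in hippocampus gave 0.55 (-0.25 to 1.34), and -0.13 without knockout replicate 2, the library with 259 CPM. In olfactory bulb it gave -0.47 (-1.20 to 0.26), and 0.10 without wild type replicate 3, the library with 424 CPM. MiR-10a-5p gave -0.0052 (-0.55 to 0.54) in hippocampus and -0.46 (-0.95 to 0.04) in olfactory bulb, where its unadjusted p was 0.0700 in the edgeR fit. None passed the threshold, and of all miRNAs tested 0.149%, 2.09%, 0% and 0.149% passed in cerebellum, cortex, hippocampus and olfactory bulb. Of the 14 that passed in cortex, 8 were the olfactory bulb markers by which the wild type cortex libraries stand apart, all lower in knockout. So were 7 of the 10 that passed on average. Whether loss of Cdr1as lies behind these calls was not tested. In hippocampus 39 of the 669 miRNAs had an unadjusted p under 0.05 in edgeR, and DESeq2 called 3.

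**Figure D4:**
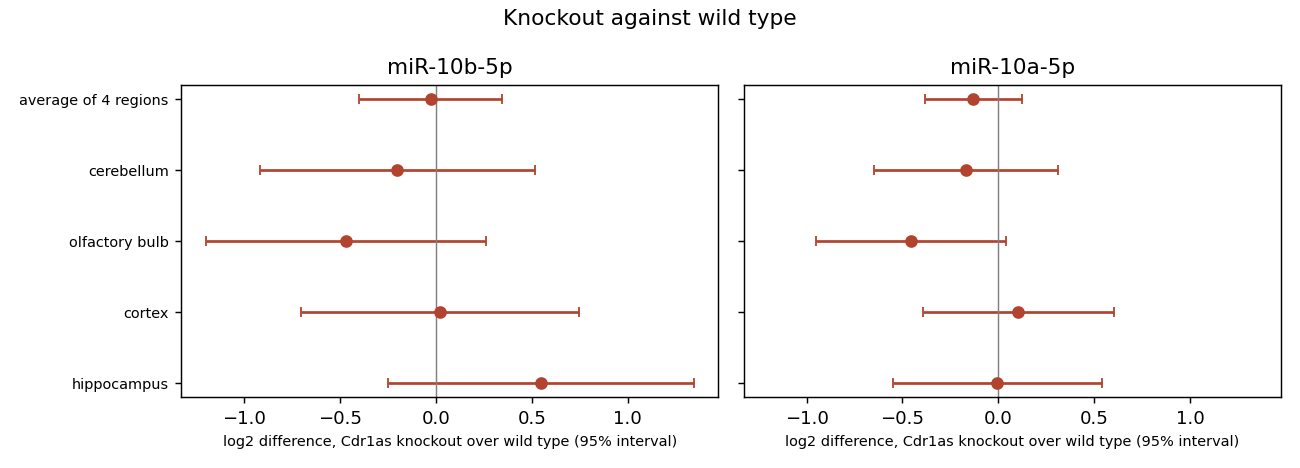
Log2 difference of Cdr1as knockout over wild type with its 95% interval from the edgeR fit, for miR-10b-5p (left) and miR-10a-5p (right), averaged over 4 regions and in each region. Every interval includes 0, and the widest is that of miR-10b-5p in hippocampus, from -0.25 to 1.34.

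The regional difference itself was compared between genotypes in the same model. The log2 difference of cerebellum over forebrain in knockout minus that in wild type was -0.23 for miR-10b-5p (95% interval -1.07 to 0.60) and -0.049 for miR-10a-5p (-0.62 to 0.52). Neither passed, and 0% of the miRNAs tested did in edgeR, where 12 had an unadjusted p under 0.05. The knockout and wild type values of the regional difference come from separate libraries.

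The 3p arms of the miR-10 hairpins were nearly absent. Over all libraries miR-10a-3p had 21 counts against 20461 of its 5p arm, a share of 0.103% (95% exact binomial interval 0.0635% to 0.157%). MiR-10b-3p had 6 counts against 83675, a share of 0.00717% (0.00263% to 0.0156%). MiR-10a-3p was at 0 in 11 libraries and never above 4 counts, and miR-10b-3p was at 0 in 18 libraries and never above 2. In the cerebellum miR-10a-3p had 1, 2 and 4 counts in knockout libraries, against 2, 1 and 0 in wild type libraries. The ratio of its rate per read between all cerebellum and all forebrain libraries was 2.04 (95% counting interval 0.777 to 5.29, from 10 and 11 counts). For miR-10b-3p that ratio was 4.49 (0.644 to 49.6, from 4 and 2 counts), so for neither 3p arm was a regional difference detectable at this depth. The log2 ratio of 5p to 3p counts, with 0.5 added to each, gave a difference of cerebellum minus forebrain of 0.45 in knockout and 1.88 in wild type for miR-10a (two-sided exact permutation tests, adjusted p 0.643 in knockout and 0.0436 in wild type), and of 2.21 in knockout and 2.54 in wild type for miR-10b (adjusted p 0.0436 in knockout and 0.0409 in wild type). With 3p counts of 0 to 4 per library, this ratio moves with the 5p count and with single 3p reads. These calls ended when almost any library was left out, which also leaves the test fewer arrangements. The miR-10b call was kept in knockout only without hippocampus replicate 2 or olfactory bulb replicate 3, and in wild type only without hippocampus replicate 3 or olfactory bulb replicate 2, and the miR-10a call in wild type only without hippocampus replicate 3.

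The miR-196 members were at the limit of detection. MiR-196a-5p had 2, 2 and 0 counts in knockout cerebellum libraries and none in the 8 knockout forebrain libraries, whose reads together allow at most 0.0564 counts per 1000000 reads. In wild type it had 0, 4 and 2 counts in cerebellum libraries and 2 counts in 1 cortex library, with none in the other forebrain libraries. Over both genotypes that was 10 counts in 4 of 6 cerebellum libraries, against 2 counts in 1 of 17 forebrain libraries. The ratio of the rates per read was 11.2 (95% counting interval 2.39 to 105).

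MiR-196b-5p had 2, 3 and 1 counts in knockout cerebellum libraries and 1 count in a single knockout forebrain library, of the hippocampus. In wild type it had 1, 1 and 0 counts in cerebellum libraries and 1 count in each of 3 forebrain libraries. The rate per read in the cerebellum over that in the forebrain was 13.2 in knockout (95% counting interval 1.60 to 605) and 1.53 in wild type (0.127 to 13.3). The intervals overlap, but overlap is not a test, and these ratios were not tested between genotypes. These intervals and upper limits hold for counting error alone, since reads copied by PCR are not independent molecules. These members and the 3p arms did not reach the filter on low counts and were not in the test of 669 miRNAs.

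MiR-615-3p, which is no member but comes from an intron of Hoxc5 in the HoxC cluster on chromosome 15, is described beside them by its counts. Its sequence, with another seed, is shown for comparison with the members.
miR-615-3p: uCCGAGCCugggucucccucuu
It had 12, 11 and 11 counts in knockout cerebellum libraries and 1 count in all knockout forebrain libraries together. In wild type it had 11, 14 and 14 counts in cerebellum libraries and 2 counts in all forebrain libraries together. The rate per read in cerebellum over forebrain was 74.5 in knockout (95% counting interval 12.5 to 3030) and 44.6 in wild type (11.6 to 381). It passed the filter on low counts only through its cerebellum libraries, so its regional difference is given as counts and rates, with no test. The other Hox-cluster names in the tables, miR-615-5p, miR-196a-1-3p, miR-196a-2-3p and miR-196b-3p, were at 0 in 23 of 23 libraries, which allows up to 0.0557 counts per 1000000 reads in the cerebellum and 0.0248 in the forebrain.

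**Figure D5:**
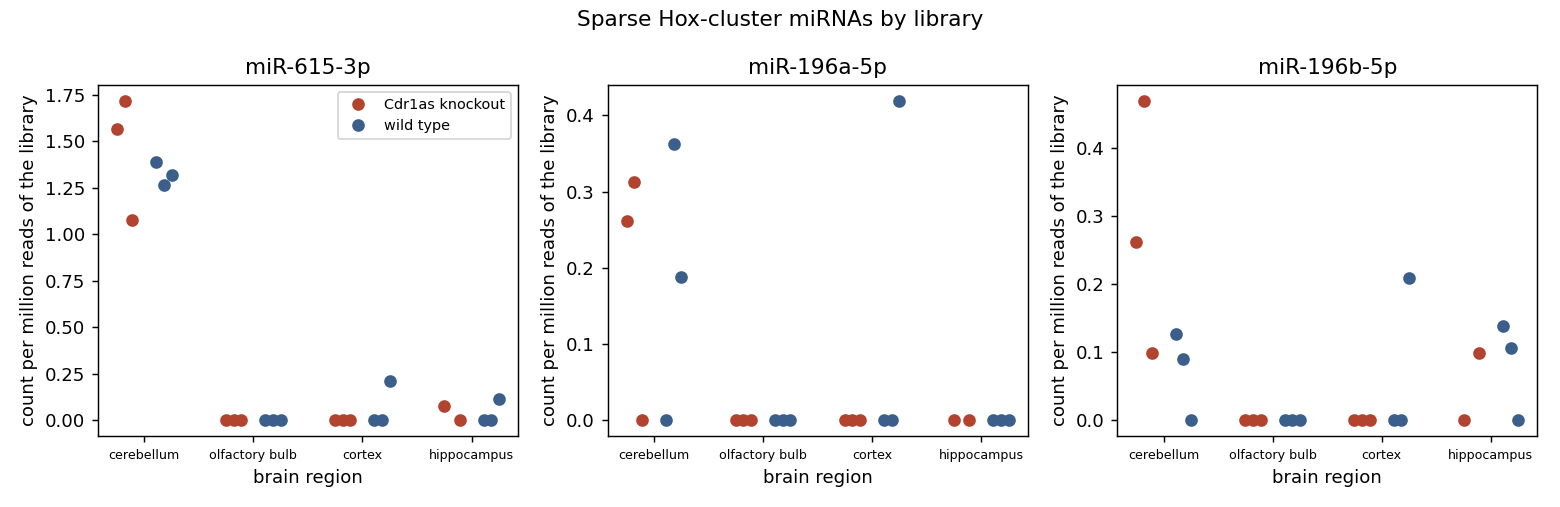
Values, in counts per 1000000 reads of the library, for miR-615-3p, miR-196a-5p and miR-196b-5p in every library by brain region, knockout left of wild type. MiR-615-3p has 11 to 14 counts in each cerebellum library and at most 1 in a forebrain library, and the miR-196 members have at most 4 counts in any library.

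The wider miR-10 family includes miR-99, miR-100 and miR-125, whose genes lie outside the Hox clusters. The miR-99 and miR-100 sequences resemble miR-10 closely but have a different seed, in capitals below.
miR-100-5p: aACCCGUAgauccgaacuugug
miR-99a-5p: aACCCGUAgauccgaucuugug
miR-99b-5p: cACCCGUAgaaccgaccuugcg
miR-125a-5p: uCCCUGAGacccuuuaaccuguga
Of the 11 names of this group that were tested, 2 were called higher in knockout cerebellum than in forebrain and 1 in wild type, and 0 were called lower. Of all miRNAs tested 16.0% were called higher in knockout and 16.4% in wild type, so these counts are near the background and are not a result about the group. MiR-125a-5p was higher in both genotypes, by a log2 difference of 1.19 in knockout (adjusted p = 1.66e-08) and 1.15 in wild type (adjusted p = 1.74e-08, both edgeR with Benjamini-Hochberg adjustment). Scaled by library size alone it gave 0.90 in knockout and 0.76 in wild type, short of 2-fold. MiR-99b-5p, from the same cluster on chromosome 17, was higher by 1.04 in knockout (adjusted p = 0.000183, edgeR with Benjamini-Hochberg adjustment) and gave 0.80 in wild type, short of 2-fold. The knockout call of miR-99b-5p lay at the 2-fold limit and was kept in 6 of 11 alternatives other than single left-out libraries. It was 0.99 with the replicate block in the cerebellum, 0.96 with the block over all regions, 0.94 with the block by genotype, 0.77 with library size alone and 0.85 without the cortex. Without knockout cerebellum replicate 1 it was 0.74. The closest relatives in sequence, miR-100-5p and miR-99a-5p, gave 0.0098 and -0.14 in knockout and -0.14 and -0.15 in wild type, and all of these changed sign under at least 1 other scaling. MiR-125b-5p gave -0.20 in knockout (0.040 with upper quartile scaling) and -0.28 in wild type. The median over the group was 0.39 in knockout and 0.53 in wild type, against 0.0089 in knockout and 0.024 in wild type over all miRNAs tested. None of the 11 passed between genotypes in any region or on average (edgeR with Benjamini-Hochberg adjustment).

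Markers of other cell types moved with region. The counts of markers called stand beside 16.0% of all miRNAs called higher and 17.0% called lower in knockout cerebellum, and 16.4% higher and 17.8% lower in wild type cerebellum. Of 10 miRNAs of choroid plexus and ciliated epithelium, 9 were called higher in the cerebellum in knockout and 9 in wild type, with summed levels of 10376 to 14267 CPM in knockout cerebellum and 11197 to 18550 CPM in wild type cerebellum. In the forebrain that sum was 1971 to 4904 CPM in knockout and 2080 to 13203 CPM in wild type libraries. The wild type hippocampus libraries had 10433, 3076 and 13203 CPM of these markers beside 74.3, 127 and 185 CPM of miR-10b-5p. Of 5 red blood cell miRNAs, 2 were called higher in the cerebellum in each genotype (miR-486a-5p and miR-486b-5p, which have equal counts in every library and so are 1 measurement), and the list's median log2 difference was 0.58 in knockout and 0.51 in wild type. With that pair counted once, the sum was 34001 to 38431 CPM in knockout and 32106 to 47229 CPM in wild type cerebellum. In the forebrain it was 3713 to 10477 CPM in knockout and 3668 to 10230 CPM in wild type libraries. Nearly all of this was miR-486, and the other 3 markers, of which none was called, summed to 217 to 261 CPM in knockout and 199 to 258 CPM in wild type cerebellum. They summed to 106 to 203 CPM in knockout and 98.3 to 241 CPM in wild type forebrain libraries. The highest sum of the list belonged to wild type cerebellum replicate 3, which also had the highest miR-10b-5p and miR-10a-5p of all libraries. In knockout cerebellum the highest sum, 38431 CPM in replicate 3, stood beside the lowest miR-10b-5p there, 1234 CPM. Wild type cerebellum replicate 2 had a higher sum than replicate 1 (42097 against 32106 CPM) but less miR-10b-5p (1234 against 1276 CPM).

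None of 6 endothelial and mural miRNAs was called in either genotype, with median log2 differences of 0.068 in knockout and 0.083 in wild type. In hippocampus the knockout library with 259 CPM of miR-10b-5p had the highest sum of these markers, 31176 CPM. The other knockout library had 23519 CPM, and the wild type libraries had 21098 to 28807 CPM. In cortex and olfactory bulb of each genotype and in wild type cerebellum, the library highest in this sum was also highest in miR-10b-5p. In wild type hippocampus and knockout cerebellum it was not. Of 5 microglia and leukocyte miRNAs 1 was called lower in knockout and 2 in wild type cerebellum, and of 4 oligodendrocyte miRNAs 0 were called higher in knockout and 1 in wild type. Of 4 neuron miRNAs 1 was called lower in each genotype. Counts of 0 to 2 in lists this short give no result about these lists. All 8 olfactory bulb miRNAs were called lower in both genotypes, against a forebrain mean that includes the bulb itself. In knockout their sum was 551 to 1130 CPM in cerebellum, above the 141 to 445 CPM in cortex and 175 to 225 CPM in hippocampus. In wild type it was 876 to 1133 CPM in cerebellum, 3676 to 6802 CPM in cortex and 200 to 327 CPM in hippocampus. No marker on these lists was at 0 in all libraries, and the part of these cell types in the miR-10 difference was not tested. Without the olfactory bulb or without the cortex libraries, both miR-10 5p arms were still called in both genotypes.

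The miRNAs whose mean log2 CPM over the 8 groups most resembled that of miR-10b-5p were miR-30a-5p (Pearson's r 0.986), miR-194-5p (0.979), let-7e-3p (0.976), miR-615-3p (0.975) and miR-378c (0.973), and miR-10a-5p itself had 0.976. For miR-10a-5p they were miR-486a-5p with its identically counted partner miR-486b-5p (both 0.992), miR-30a-5p (0.991), miR-195a-5p (0.987) and miR-486b-3p (0.987). These correlations are descriptions over 8 group means that share libraries and scaling, and they mainly follow the gap between the cerebellum groups and the rest. MiR-615-3p had 3 counts over all 17 forebrain libraries and passed the filter only through its cerebellum libraries, so its resemblance was largely fixed beforehand. Apart from miR-615-3p, the regional log2 differences of these miRNAs ranged from 0.66 in knockout and 0.69 in wild type for let-7e-3p to 2.97 in knockout and 3.01 in wild type for miR-195a-5p.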

How the data were processed

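The deposited tables hold unnormalized counts for each mature miRNA, as their whole-number values show, with a file for every library. The build was mm9, per the submitters' processing notes. How reads were aligned, counted and shared between similar miRNAs is not given in the sources used here. Per the labels' protocols, TRIZOL was used for RNA and a TruSeq small RNA kit for the libraries.

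The tests were run with edgeR 4.0.16 in R 4.3.3, with limma 3.58.1 and DESeq2 1.42.0 for alternatives. The filterByExpr step (minimum count 10, minimum total 15) kept 669 of 1459 miRNAs with a count, holding at least 99.988% of the reads of every library. A quasi-likelihood model with 8 group means over 23 libraries was fitted after TMM scaling, F tests were two-sided, and Benjamini-Hochberg adjustment ran over all 669 with a threshold of 0.05. Comparisons of regions also required a 2-fold difference. The forebrain mean is taken over 3 regions on the log2 scale. Intervals of fitted differences are at 95%. Ratios within libraries used 0.5 added to each count and exact permutation tests. Rates of sparse miRNAs have exact conditional Poisson intervals, and a count of 0 allows up to 3 counts.

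The members, marker lists and tests were chosen with earlier results of these data known. Named miRNAs are the 6 members, the other Hox-cluster names, the miR-99, miR-100 and miR-125 names, and the 5 most alike to each miR-10 5p arm. Libraries within a group all differed beyond sampling noise (chi-square per degree of freedom 28.4 to 242). Replicate numbers of knockout and wild type libraries deviated together in the cerebellum, where the correlation of their deviations exceeded 0.1 in all 3 pairs (0.116, 0.374 and 0.103). Over all regions they did so in 5 of 11 pairs, so only the cerebellum was treated as paired, in an alternative fit chosen after seeing the data. Between regions of a genotype, libraries with the same number exceeded 0.1 in 10 of 33 pairs, with correlations from -0.339 to 0.256. Blocks over all regions and by genotype were also run as alternatives.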

Additional observations from a re-analysis of the deposited data

How the results depend on the processing

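MiR-10b-5p and miR-10a-5p were called higher in the cerebellum than in the forebrain in both genotypes under every scaling, filter, tool, block and left-out library or region that was run. With the 11 alternatives other than single left-out libraries, the log2 difference of miR-10b-5p ran from 2.50 to 3.04 in knockout and 2.62 to 3.32 in wild type, and that of miR-10a-5p from 1.75 to 2.29 in knockout and 1.68 to 2.41 in wild type. With each library left out it ran in knockout from 2.67 to 2.99 for miR-10b-5p and 1.99 to 2.13 for miR-10a-5p, and in wild type from 2.83 to 3.21 for miR-10b-5p and 1.88 to 2.21 for miR-10a-5p. Upper quartile scaling moved the median of all miRNAs to 0.26 in knockout and 0.30 in wild type, and library size alone to -0.28 in knockout and -0.37 in wild type. A replicate block in the cerebellum was chosen after seeing the data, and the labels do not say that the numbers pair the samples. With it the miR-10b-5p difference was 2.79 in knockout and 3.01 in wild type, and no call of a member changed. With no filter, 4 of the 6 members were called in knockout and 3 in wild type, where 17.5% of 1459 miRNAs were called in knockout and 17.9% in wild type. The added members were miR-196a-5p in both genotypes and miR-196b-5p in knockout, which had at most 4 counts in a library.

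Counts of all miRNAs called between genotypes were less stable. With no filter they were 21 on average, 12 in cerebellum, 20 in hippocampus, 4 in olfactory bulb and 3 for the genotype difference of the regional contrast. DESeq2 gave 3 in cerebellum and 3 in hippocampus, limma-voom 2 and the replicate block over all regions 2 in hippocampus, and leaving out the cortex gave 3 on average. With single libraries left out the counts were 0 to 1 in cerebellum, 0 to 8 in hippocampus and 0 to 1 in olfactory bulb, and 3 to 5 of 6 wild type region pairs were called for miR-10a-5p. The cause of these shifts was not tested.

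Ratios within libraries kept their direction between cerebellum and forebrain with each library left out, but many calls ended. In knockout the call was kept for miR-10b-5p over miR-10a-5p in 8 of 11 such fits and for the miR-10b arms in 2 of 11. The wild type call was kept in 2 of 12 for each of these ratios and in 1 of 12 for the miR-10a arms. The cerebellum difference of miR-10b-5p over miR-10a-5p ran from 0.75 to 0.88 in knockout and 0.85 to 1.11 in wild type. That of the miR-10b arms ran from 1.68 to 2.60 in knockout and 1.99 to 3.45 in wild type, and that of the miR-10a arms in wild type from 1.06 to 2.51. Fewer arrangements are left in such tests, so the smallest p they allow is higher. The knockout minus wild type ratio of the miR-10b arms ran from -0.79 to 5.3e-05.

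Some values changed sign without being called. Many lay near 0, but some had an adjusted p under 0.05 in edgeR and fell short only of 2-fold. With library size alone these were miR-10b-5p in knockout cortex over olfactory bulb (adjusted p = 0.0489, edgeR) and miR-125b-2-3p in wild type (0.00208). Without the olfactory bulb they were miR-125b-2-3p in knockout (adjusted p = 0.00617, edgeR) and in wild type (0.00348). With DESeq2 size factors in edgeR, miR-100-5p gave -0.021 in the knockout regional contrast and miR-10a-5p 0.0078 between genotypes in hippocampus. Upper quartile scaling gave in the regional contrast 0.096 in knockout and 0.12 in wild type for miR-99a-5p, 0.11 in wild type for miR-100-5p and 0.040 in knockout for miR-125b-5p. It gave between genotypes 0.010 for miR-10b-5p on average and 0.020 for miR-10a-5p in hippocampus, and for miR-10a-5p in cortex over hippocampus -0.0085 in knockout and -0.23 in wild type. Library size alone gave -0.17 in knockout and -0.30 in wild type for miR-125b-2-3p, -0.26 in knockout for miR-100-5p, 0.067 for miR-10a-5p in the genotype difference of the contrast, and -0.0039 for miR-10b-5p between genotypes in cortex. It also gave -0.011 for miR-10a-5p in wild type cortex over hippocampus, 0.81 in knockout and 0.31 in wild type for miR-10b-5p in cortex over olfactory bulb, and in knockout 0.50 in cortex and 0.34 in hippocampus over olfactory bulb for miR-10a-5p. With no filter, miR-100-5p gave -0.023 in knockout, miR-10a-5p -0.034 in wild type cortex over hippocampus and miR-10b-5p 0.010 in knockout cortex over olfactory bulb. DESeq2 gave -0.021 for miR-100-5p in knockout and 0.0078 for miR-10a-5p in hippocampus. Limma-voom gave -0.026 for miR-100-5p in knockout, 0.0068 for miR-10b-5p between genotypes and -0.024 in knockout hippocampus over olfactory bulb. The replicate block gave -0.075 for miR-100-5p in knockout, 0.0040 for miR-10b-5p between genotypes and -0.00072 for miR-10a-5p in wild type cortex over hippocampus. Blocks by genotype and in the cerebellum gave -0.10 and -0.054 for miR-100-5p in knockout. Without the olfactory bulb, miR-100-5p gave 0.14 in wild type, miR-125b-2-3p -0.34 in knockout and -0.35 in wild type, and miR-10b-5p 0.12 between genotypes. Without the cortex, miR-100-5p gave -0.047 in knockout and miR-10a-5p 0.029 in the genotype difference of the contrast.

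Leaving out single libraries also carried some uncalled values across 0. In the regional contrast miR-100-5p ran from -0.32 to 0.22 in knockout and -0.40 to 0.025 in wild type, and miR-125b-2-3p from -0.011 to 0.15 in wild type. Between genotypes miR-10b-5p ran from -0.19 to 0.12 on average, -0.088 to 0.12 in cortex, -0.13 to 0.97 in hippocampus and -0.78 to 0.10 in olfactory bulb. MiR-10a-5p ran from -0.29 to 0.034 in cerebellum, -0.062 to 0.22 in cortex and -0.28 to 0.20 in hippocampus, and -0.17 to 0.15 in the genotype difference of the contrast. In cortex over hippocampus miR-10a-5p ran from -0.079 to 0.39 in knockout and -0.091 to 0.082 in wild type, and miR-10b-5p from -0.58 to 0.53 in knockout. MiR-10b-5p in knockout ran from -0.25 to 0.19 in cortex and -0.65 to 0.52 in hippocampus over olfactory bulb.

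The depth limits the miR-196 members and the miR-10 3p arms, which had at most 4 counts in a library, and 3 or 2 libraries per group limit the genotype comparison.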
